A study of Mus musculus with 2 samples.

Results

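The transcripts described here are annotated models of types that the annotation sets apart from the protein_coding type. Models of the type retained_intron keep intron sequence inside an exon. Models of the type nonsense_mediated_decay (NMD) have a reading frame that ends upstream of a later exon junction. A model was included when a long-read library assigned it at least 1 read as an exact match to the annotation and when the annotation deposited with that library gave it either type. Of 22139 annotated models with reads, 3761 met this rule, of which 3169 were retained_intron models and 592 were NMD models. They belonged to 2856 genes. The value followed throughout is the share of a gene's reads held by 1 model, which is the reads of the model divided by all reads assigned to the gene, unannotated models included.

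Most introns are removed in the nucleus before export, and a polyadenylated RNA that still holds one can be kept in the nucleus, spliced later or degraded. In nonsense-mediated decay, a ribosome that stops well upstream of an exon junction complex leads to degradation of the RNA. Genes for splicing factors are known for transcripts of both kinds, and several of them use such transcripts to control their own level.

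The study sequenced adrenal gland RNA from C57BL/6J mice with long reads in 1 group of 2 biological replicates. No treatment, genetic change or second tissue was included, so the only comparison the design allows is between the 2 libraries. One text field in the labels calls the animals female while the field for sex reads "not collected", and the age is given as unknown. Both replicates carry the same donor label, and nothing says whether a replicate is 1 animal or a pool, so the libraries may share a source and their spread may be technical. Replicate 1 held 810239 reads and replicate 2 held 587861 reads. The median length of the annotated model behind a read was 1648 nt in replicate 1 and 3052 nt in replicate 2, so the libraries differ in the lengths they sampled. Unspliced reads on unannotated models made up 10.8% and 6.31% of reads, respectively. Cortex genes (Cyp21a1, Cyp11b1, Star, Hsd3b1 and Cyp11a1) and medulla genes (Chga, Chgb, Th, Dbh and Pnmt) had reads in both libraries, at levels that differed. Dbh had 46.9 and 347 CPM, Pnmt 392 and 81.7 CPM, Th 1210 and 527 CPM, and Hsd3b1 13987 and 4960 CPM, in replicate 1 and replicate 2. The part of such differences in the results that follow was not tested. In bulk tissue, fewer cells of a type and less RNA per cell cannot be told apart.

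Retained introns behind several of the main results are shown by the sequence that a ribosome reading the gene's usual frame would meet. Each line gives 15 bases of the exon before the intron, then the intron up to the stop codon reached in that frame, which is in capitals. Sequences were read from the annotated transcripts, with coordinates on mm10 (GRCm38), and all lie in coding genes where the spliced model has an intron. The set covers splicing regulators (Clk1, Sf3b1, Srsf5), a tRNA synthetase (Eprs), an aminopeptidase (Metap2) and adrenal lipid genes (Cyp11a1, Scarb1, Soat1).
Clk1-212, intron 3 of Clk1-201, chr1:58421077-58421097, minus strand: caccattcacacggggtaTGA
Clk1-212, intron 4 of Clk1-201, chr1:58420059-58420135, minus strand: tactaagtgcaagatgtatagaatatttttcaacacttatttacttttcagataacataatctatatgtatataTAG
Sf3b1-203, intron 4 of Sf3b1-201, chr1:55016233-55016390, minus strand: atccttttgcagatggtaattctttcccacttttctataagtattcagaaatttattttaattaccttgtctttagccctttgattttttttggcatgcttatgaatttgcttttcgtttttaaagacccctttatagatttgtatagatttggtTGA
Srsf5-212, intron 5 of Srsf5-201, chr12:80947851-80947874, plus strand: agagtcagctggcaggtttgtTGA
Eprs-204, intron 20 of Eprs-201, chr1:185407739-185407760, plus strand: taagaaacagaccaggtgcTGA
Metap2-209, intron 3 of Metap2-201, chr10:93880068-93880087, minus strand: agaagaagagaggacgtTAG
Cyp11a1-204, intron 3 of Cyp11a1-201, chr9:58018379-58018416, plus strand: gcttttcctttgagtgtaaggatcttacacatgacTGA
Scarb1-209, intron 11 of Scarb1-201, in part, chr5:125283737-125283913, minus strand: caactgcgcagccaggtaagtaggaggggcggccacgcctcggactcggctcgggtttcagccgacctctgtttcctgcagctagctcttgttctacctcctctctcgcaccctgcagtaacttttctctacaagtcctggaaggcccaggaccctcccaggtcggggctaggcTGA
Soat1-203, intron 4 of Soat1-207, in part, chr1:156446537-156446555, minus strand: gaaccacagagccaagTGA
In Scarb1-209 and Soat1-203 the model ends inside the intron, and in the other models named above the whole intron is present. In Clk1-212 both neighbouring introns are present, so a ribosome would meet the stop in intron 3 before the one in intron 4.

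The next sequences carry the stop codons of NMD models, again in capitals. In Ddx5-208 the line gives 15 exon bases followed by the kept intron up to its stop, and in the other models it gives a whole exon that no protein_coding model of the gene contains.
Ddx5-208, kept intron, chr11:106783954-106783973, minus strand: cctccagagggctaggtTAG
Dnajc5-204, extra exon, chr2:181548926-181549000, plus strand: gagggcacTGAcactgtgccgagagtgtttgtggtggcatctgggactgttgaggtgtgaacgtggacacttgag
Yaf2-202, extra exon, chr15:93317539-93317608, minus strand: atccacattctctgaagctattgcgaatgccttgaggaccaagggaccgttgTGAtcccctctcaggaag
E2f6-204, extra exon, chr12:16813847-16813912, plus strand: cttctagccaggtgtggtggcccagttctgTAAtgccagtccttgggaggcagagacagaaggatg
The stop in Ddx5-208 ended 5 nt into the kept intron, so its reading frame was 406 codons long against 615 codons for the longest protein_coding model. The extra exons of Dnajc5-204, Yaf2-202 and E2f6-204 were 75, 70 and 66 nt long and left reading frames of 167, 68 and 46 codons.

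Few reads stood behind most of these models. Retained_intron models numbered 2130 in replicate 1 and 1767 in replicate 2, with 728 in both, which is 23.0% of those seen in either. For NMD models the numbers were 411, 361 and 180, or 30.4% seen in both, and for protein_coding models 61.0% were seen in both. A single read over both libraries was the whole evidence for 1648 retained_intron models (52.0%) and 218 NMD models (36.8%), against 17.6% of protein_coding models. Where the gene reached 10 reads in each library, 1876 of 8808 annotated retained_intron models had a read (21.3%), as did 350 of 2699 NMD models (13.0%) and 7279 of 16248 protein_coding models (44.8%). A model with no read in a library could still have been present at up to 3.70 CPM in replicate 1 and 5.10 CPM in replicate 2, the level that 3 reads would give once scaled to library size (CPM).

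Together the members held about 1 in 100 reads of these adrenal libraries. Retained_intron models took 0.837% of all reads in replicate 1 (95% Clopper-Pearson interval 0.817 to 0.857) and 1.11% in replicate 2 (1.08 to 1.13), a mean of 0.972% ± 0.191 (SD, n = 2). NMD models took 0.177% (0.168 to 0.186) and 0.316% (0.302 to 0.331), a mean of 0.247% ± 0.0988 (SD, n = 2). These intervals, and those that follow, cover counting error only. Both classes were higher in replicate 2 by a two-sided Fisher's exact test of member reads against all other reads, which compares 2 libraries and their reads and has no replicate check (p = 7.12e-59 for retained_intron and p = 1.73e-62 for NMD).

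A single model in each class carried nearly all of that difference. Without Rsrp1-204, retained_intron models held 0.828% and 0.845% of reads, and Fisher's exact test no longer separated the libraries (p = 0.275). Without Ddx5-208, NMD models held 0.172% and 0.187% (Fisher's exact test, p = 0.0384). Leaving out the 5 most read NMD models gave p = 0.121 and leaving out the 10 most read gave p = 0.00422 by the same exact test. These omissions were chosen after the values were seen.

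**Figure D1:**
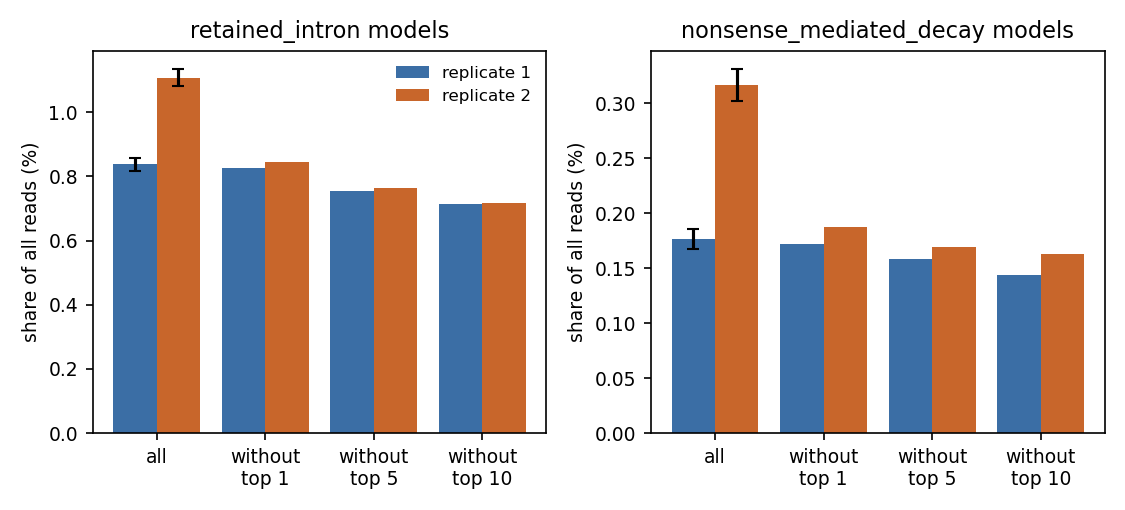
Share of all reads (y axis, percent) on retained_intron models (left) and nonsense_mediated_decay models (right) in replicate 1 and replicate 2, for all models and without the 1, 5 or 10 most read models of the type. Error bars on the bars for all models are 95% Clopper-Pearson intervals; without Rsrp1-204 the retained_intron bars stand at 0.828% and 0.845%.

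Within their genes, members were mostly minor forms. Of 4806 genes that reached 10 reads in each library, 1600 (33.3%) had a member, and the members of such a gene summed to a median of 2.33% of its reads in replicate 1 and 1.75% in replicate 2. The median retained_intron model held 1.87% of its gene's reads, averaged over the libraries, with a middle range between the quartiles of 0.714% to 4.54% (1876 models). For NMD models the median was 2.29% (0.962% to 5.54%, 350 models), and protein_coding models of the same genes had a median of 28.7%. In 33 genes the members summed to at least 25% of the reads in both libraries, and in 3 genes to at least 50%.

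The retained_intron models with at least 50% of the gene's reads in both libraries were Rsrp1-204 and Ngrn-202, and no NMD model reached that share in both. With reads on annotated models as the denominator, 7 retained_intron and 4 NMD models did. Ngrn-202 of Ngrn (neugrin), named here after its values were seen, held 21 of 42 reads in replicate 1 and 13 of 20 (65.0%) in replicate 2. Members were the most read model of their gene in both libraries in 8 genes for retained_intron and 3 for NMD. Some of these rested on few reads, and models with equal reads were ordered by name. Cspp1-211 had 2 of 12 and 2 of 14 reads, and Dlgap1-220 had 7 of 28 and 4 of 40. Besides those of Rsrp1 and Eprs, the retained_intron models were from Cspp1, Cttnbp2, Dlgap1, Epb41l1 and 2 splicing regulator genes, Tra2a and Sfswap. The last 2 are described after their values were seen, and their models are unspliced. Tra2a-203, of 3788 nt and from the gene of an SR-like splicing activator, held 7 of 16 reads (43.8%) and 12 of 27 (44.4%). Sfswap-212, of 3398 nt and from a gene for another splicing regulator, held 6 of 15 (40.0%) and 18 of 55 (32.7%). The intervals were wide at this depth, at 19.8 to 70.1 and 25.5 to 64.7 for Tra2a-203. For Sfswap-212 they were 16.3 to 67.7 and 20.7 to 46.7. Of reads on annotated models, Tra2a-203 held 63.6% and 54.5%, and Sfswap-212 held 85.7% and 54.5%.

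**Figure D2:**
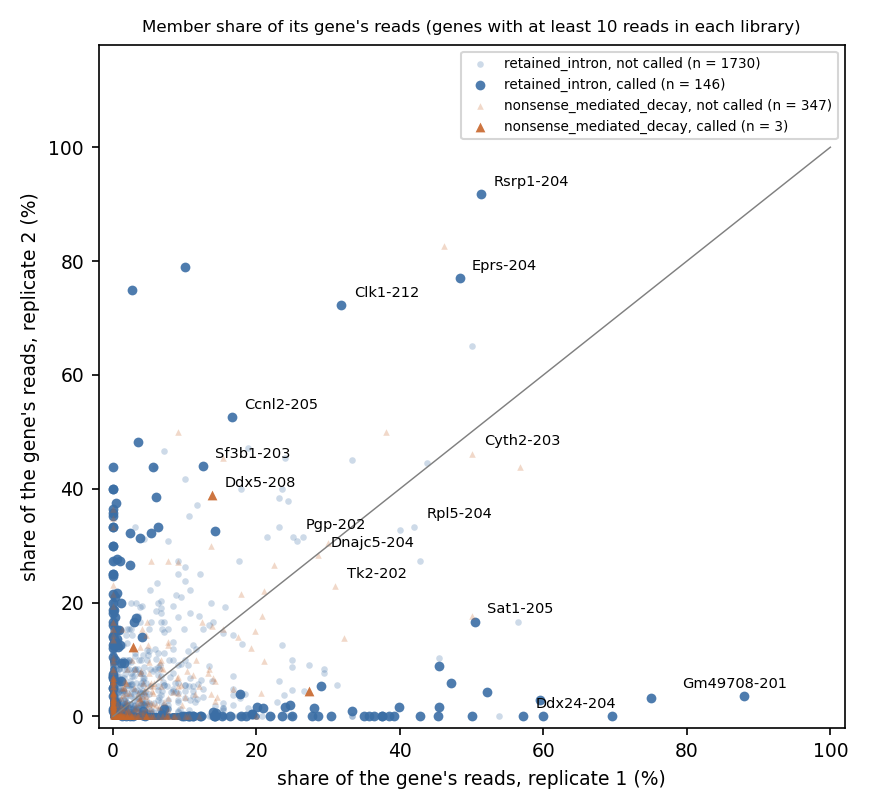
Share of the gene's reads held by each member in replicate 1 (x axis, percent) and replicate 2 (y axis, percent), for genes that reached 10 reads in each library; large symbols passed the test between libraries and the line marks equal shares. Rsrp1-204, Eprs-204 and Clk1-212 lie above the line, while many called models lie along either axis, with no reads or few in the other library.

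The shares differed between the libraries for 146 of 1876 retained_intron models (7.78%) and 3 of 350 NMD models (0.857%), by Fisher's exact test with Benjamini-Hochberg adjustment over all 9963 annotated models tested. Over all annotated models, 12.9% passed the same test, and 15.2% of protein_coding models did, so both classes were below the background at this setting. By direction, 80 retained_intron models were higher in replicate 2 (4.26%, background 8.26%) and 66 were higher in replicate 1 (3.52%, background 4.62%). The part of read depth in that lower count was not tested, and members had fewer reads than protein_coding models, as given above. Length moved with direction: of the 80 models higher in replicate 2, 51 were longer than the mean of their gene's other reads, and of the 66 higher in replicate 1, 56 were shorter. Of all 1876 tested, 532 were longer and 1344 shorter. The part that the difference in sampled length plays in these calls was not tested.

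The retained_intron model with the most reads was that of Rsrp1. Rsrp1 encodes an arginine- and serine-rich protein related to SR splicing factors. Rsrp1-204, which keeps a coding intron of 1302 nt, had 77 of the gene's 150 reads in replicate 1 and 1546 of 1685 in replicate 2. Its share was thus 51.3% (43.0 to 59.6) and 91.8% (90.3 to 93.0), and the adjusted p was 9.9e-31 by Fisher's exact test. The intron-holding form was the main one in both libraries, and protein_coding models of the gene had 39 and 12 reads. The larger total of the gene in replicate 2 was thus made up of reads on this 1 model.

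Clk1 encodes a kinase that phosphorylates SR proteins and is known for a pool of intron-holding RNA. Clk1-212 keeps introns 3 and 4, of 871 and 387 nt. It had 7 of 22 reads in replicate 1 (31.8%, 13.9 to 54.9) and 141 of 195 in replicate 2 (72.3%, 65.5 to 78.5), with an adjusted p of 0.00503 by Fisher's exact test. Protein_coding models of Clk1 had 7 and 10 reads, while retained_intron models together had 7 and 146.

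Ccnl2 encodes cyclin L2, a partner of kinases that act in splicing. Ccnl2-205 had 20 of 121 reads (16.5%, 10.4 to 24.4) in replicate 1 and 177 of 337 (52.5%, 47.0 to 58.0) in replicate 2. The adjusted p was 1.05e-10 by Fisher's exact test. No whole intron of a protein_coding model lay inside an exon of Ccnl2-205, and its 3′ end did not fall in one either, so the sequence that gives it its type was not located. Among the models described below, the same holds for Rpl5-204, Cox4i1-204, Sat1-205, Gm49708-201 and Fry-206.

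Sf3b1 encodes a core protein of the U2 small nuclear ribonucleoprotein, which binds the branch point. Sf3b1-203 keeps intron 4 of 1813 nt and had 21 of 168 reads (12.5%, 7.91 to 18.5) and 99 of 225 reads (44.0%, 37.4 to 50.8). The adjusted p was 4.33e-10 by Fisher's exact test. This difference depended on what counts as the gene's reads: 127 and 56 of them were on incomplete models, which match only part of an annotated model. Against reads on annotated models alone, Sf3b1-203 held 87.5% and 78.6%, a difference of the opposite sign.

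The same held for Eprs, the gene of the glutamyl-prolyl-tRNA synthetase. Eprs-204 keeps intron 20 of 2431 nt and had 199 of 412 reads (48.3%, 43.4 to 53.2) in replicate 1 and 258 of 335 (77.0%, 72.1 to 81.4) in replicate 2. Fisher's exact test gave an adjusted p of 7.3e-14. Of annotated reads alone, however, it held 99.0% and 98.5%, a difference of -0.53 percentage points. Protein_coding models of Eprs had 1 read and 0 reads, and the other reads were mainly on incomplete models (189 and 34). Eprs-204 covers 20 exons and 5638 nt, and the spliced model has 31 introns. Intron 20 ends at base 185410184 of its chromosome and Eprs-204 at base 185410199, so the model stops within a few bases after the intron.

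Other genes of RNA processing followed. Srsf5-212 keeps intron 5 of Srsf5, an SR protein gene, and had 3 of 47 reads (6.38%) and 33 of 392 (8.42%), with an adjusted p of 1 by Fisher's exact test. In replicate 2, however, 303 of the 392 reads were on unannotated combinations of known splice sites. Of reads on annotated models, Srsf5-212 held 13.0% and 67.3% (Fisher's exact test, adjusted p = 0.000785). Srsf7-207, from another SR protein gene, had 1 of 12 and 19 of 146 reads (8.33% and 13.0%). Over all reads of the gene, the intervals of both models overlapped between the libraries. Srsf2-203 went the other way in its counts, with 27 of 531 reads (5.08%) in replicate 1 and 0 of 86 in replicate 2 (upper bound of the interval 4.20%), and did not pass Fisher's exact test (adjusted p = 0.133). Over reads on annotated models alone it held 17.3% and 0, and passed the exact test (adjusted p = 0.0158).

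Rbm39, the gene of an RNA-binding protein of the spliceosome, had 2 models higher in replicate 1. Rbm39-205 held 40 of 199 reads (20.1%) in replicate 1 and 3 of 180 (1.67%) in replicate 2, and Rbm39-211 held 28 of 199 (14.1%) and 0 of 180. Adjusted p-values were 9.89e-08 and 2.7e-07 by Fisher's exact test. Both models end inside an intron and are short, at 1008 and 715 nt. Prpf4b, a kinase gene of the spliceosome, was similar, with 18 of 24 reads on Prpf4b-206 in replicate 1 and 1 of 31 in replicate 2 (Fisher's exact test, adjusted p = 6.24e-07).

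**Figure D3:**
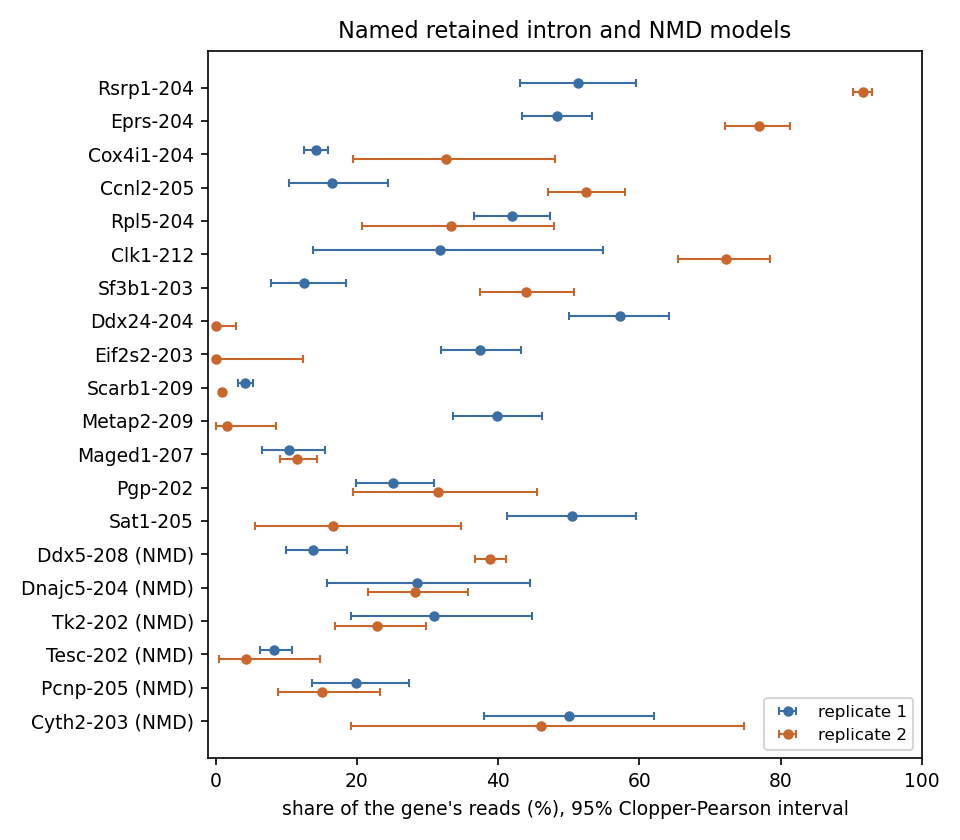
Share of the gene's reads (x axis, percent) held by the 14 most read retained_intron and the 6 most read NMD models in replicate 1 and replicate 2, with 95% Clopper-Pearson intervals; models of the NMD type are marked. The intervals lie apart for Rsrp1-204, Ccnl2-205, Ddx24-204 and Ddx5-208 and overlap for Rpl5-204, Maged1-207, Pgp-202 and Dnajc5-204.

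Several retained_intron models held a similar share in both libraries. Maged1-207, from a gene for a melanoma antigen family protein, keeps intron 7 of 218 nt and had 21 of 202 reads (10.4%, 6.55 to 15.5) and 70 of 606 reads (11.6%, 9.12 to 14.4). Pgp-202, from the phosphoglycolate phosphatase gene, keeps the gene's only intron of 92 nt and had 64 of 255 (25.1%, 19.9 to 30.9) and 17 of 54 (31.5%, 19.5 to 45.6). Rpl5-204, from the gene of ribosomal protein L5, had 140 of 334 (41.9%, 36.6 to 47.4) and 17 of 51 (33.3%, 20.8 to 47.9). None of the 3 passed Fisher's exact test (adjusted p = 1, 0.778 and 0.665), and the width of the intervals shows how large a difference could have been missed. Kcnn2-207, from a calcium-activated potassium channel gene, had 9 of 50 (18.0%) and 32 of 253 (12.6%), with an adjusted p of 0.747 by the same exact test.

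Members of Cox4i1, Rps24 and Rpl3 held a larger share in replicate 2, unlike Rpl5-204 above. Cox4i1, the gene of a cytochrome c oxidase subunit, had 1646 reads in replicate 1 and 46 in replicate 2, and Cox4i1-204 held 234 (14.2%, 12.6 to 16.0) and 15 (32.6%, 19.5 to 48.0) of them. Rps24-204, from the gene of ribosomal protein S24, held 13 of 206 (6.31%) and 29 of 87 (33.3%), and Rpl3-204 held 15 of 1305 (1.15%) and 8 of 127 (6.30%). All 3 passed Fisher's exact test, with adjusted p-values of 0.0211, 5.02e-07 and 0.00626. Genes of this kind have many processed copies in the genome, and how reads were assigned between them is not given in the sources used here.

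Among models higher in replicate 1, those with the most reads were from Ddx24, Eif2s2 and Metap2. Ddx24-204, from an RNA helicase gene, had 115 of 201 reads (57.2%, 50.1 to 64.2) in replicate 1 and 0 of 128 in replicate 2, an interval that reaches 2.84%. Eif2s2-203, from the gene of the beta subunit of initiation factor eIF2, had 112 of 299 (37.5%) and 0 of 28, where the interval reaches 12.3%. Metap2-209, from the gene of a methionine aminopeptidase that acts on new proteins, had 98 of 246 (39.8%) and 1 of 63 (1.59%). Adjusted p-values were 1.12e-30, 0.000119 and 3.59e-09 by Fisher's exact test. These models have 2 or 3 exons, and their last exon holds intron sequence. Protein_coding models of Ddx24 had 30 reads in replicate 1 and 83 in replicate 2.

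Sat1-205, from the gene of the enzyme that acetylates spermidine and spermine, had 62 of 123 reads (50.4%, 41.2 to 59.5) and 5 of 30 (16.7%, 5.64 to 34.7), with an adjusted p of 0.0101 by Fisher's exact test. Of reads on annotated models it held 59.0% and 62.5%, the opposite direction. In replicate 2, 17 of the 30 reads were on unannotated combinations of known splice sites. The largest difference in this direction was in Gm49708-201, an unspliced model of 918 nt with 44 of 50 reads (88.0%) and 2 of 57 (3.51%). In replicate 2, 53 of that gene's 57 reads were on spliced models with an unannotated splice site, and Gm49708-201 was its sole annotated model with reads in both libraries. The largest difference in the other direction was in Sec11c-205, from a signal peptidase subunit gene, with 2 of 75 reads (2.67%) and 12 of 16.

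The other large differences in share came from genes with few reads. In replicate 2, Fry-206 held 15 of 19 reads (78.9%), Ccdc86-203 14 of 29 (48.3%) and Ccdc59-202 7 of 16 (43.8%), against 1 of 10, 1 of 29 and 0 of 52 in replicate 1. Stx5a-209, an unspliced model of 3015 nt from the gene of a Golgi SNARE protein, held 2 of 83 (2.41%) and 21 of 65 (32.3%). In the opposite direction, Fubp3-205 had 16 of 23 reads (69.6%) in replicate 1 and 0 of 64 in replicate 2, and Nsun3-207, from the gene of a mitochondrial tRNA methyltransferase, had 6 of 10 and 0 of 23. All 6 passed Fisher's exact test, with adjusted p-values of 0.0112, 0.00241, 0.00026, 2.35e-05, 1.51e-10 and 0.00286 in the order given. Except for Stx5a in both libraries, Ccdc59 in replicate 1 and Fubp3 in replicate 2, these genes had fewer than 30 reads in a library. Like Stx5a-209, the models Ccdc86-203, Fubp3-205 and Nsun3-207 are unspliced.

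In the genes of the cortex's own pathway, the single models described here held from 0 to 12.2% of their gene's reads. All retained_intron models of Soat1 together had 46 of its 329 reads in replicate 1. Scarb1 encodes the receptor that takes up cholesterol esters from high-density lipoprotein. Scarb1-209, which ends inside intron 11, had 64 of 1548 reads (4.13%, 3.20 to 5.25) in replicate 1 and 39 of 4304 (0.906%, 0.645 to 1.24) in replicate 2. Soat1 encodes the enzyme that esterifies cholesterol for storage, and Soat1-203, which ends inside intron 4, had 40 of 329 (12.2%, 8.83 to 16.2) and 0 of 574 (interval up to 0.641%). Cyp11a1 encodes the side-chain cleavage enzyme that begins steroid synthesis, and Cyp11a1-204, which keeps intron 3 of 899 nt, had 2 of 6531 (0.0306%) and 34 of 3408 (0.998%, 0.692 to 1.39). All 3 passed Fisher's exact test (adjusted p = 2.75e-12, 8.84e-17 and 3.47e-12), in both directions. The short models (2082 nt in Scarb1 and 509 nt in Soat1) were higher in replicate 1 and the longer one (3439 nt in Cyp11a1) in replicate 2, and the part of the libraries' difference in sampled length was not tested here either.

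Over lists of genes by role, members held the largest share of reads in genes that act in splicing. The 20 genes of SR and SR-related proteins had 28 of 84 annotated members with reads, which held 8.23% of the list's reads in replicate 1 and 52.0% in replicate 2. For 41 core spliceosome genes (29 of 141 members) the shares were 4.60% and 28.2%, and for 11 splicing kinase genes (8 of 46) they were 5.30% and 37.0%. Over all genes with a protein_coding model, members held 1.09% and 1.46%. In each of the 3 lists 1 gene held most of the member reads in replicate 2. Of the core list's 129 member reads left there without Ddx5, 99 were on Sf3b1-203. Without Rsrp1 the SR list had 4.76% (3.84 to 5.83) and 7.18% (5.92 to 8.61), without Ddx5 the core list had 3.50% (2.78 to 4.35) and 10.7% (9.03 to 12.6), and without Clk1 the kinases had 3.21% (1.48 to 6.01) and 2.71% (1.00 to 5.82).

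The other lists follow, each with all of its genes unless stated. The 57 hnRNP and other RNA-binding protein genes had members at 4.16% and 3.20% of reads (2.40% and 3.12% without Rbm39). The 23 genes of the NMD machinery and exon junction complex had members at 2.49% and 3.47%, and at 2.38% and 1.08% without Smg5, where the order of the libraries turns. Small nucleolar RNA host genes, which are spliced around the small RNAs they carry, had 0.221% and 1.03%. Steroid synthesis genes had 0.189% and 0.141%, cholesterol synthesis genes 0.486% and 0.421%, and stress and cAMP response genes 1.29% and 0.294% (0.249% and 0.191% without Sat1). Chromaffin genes, which make and store catecholamines, had 2 members with 4 reads in all, or 0.0214% and 0.0252%. Members higher in replicate 2 and in replicate 1 numbered 1 and 1 of 28 tested for SR proteins, 3 and 2 of 19 for the core spliceosome, 1 and 0 of 8 for kinases and 2 and 3 of 52 for hnRNP genes. They numbered 2 and 3 of 10 for steroid synthesis, 2 and 0 of 20 for small nucleolar RNA hosts, 1 and 0 of 5 for cholesterol synthesis and 1 and 1 of 7 for stress genes. None of the 7 tested members of NMD factor genes passed Fisher's exact test with Benjamini-Hochberg adjustment (the lowest unadjusted exact p was 0.235, for Gspt1-206), and no chromaffin member could be tested. In all genes with a protein_coding model, 82 and 67 of 2226 members passed, beside the 12.9% of all annotated models given above.

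**Figure D4:**
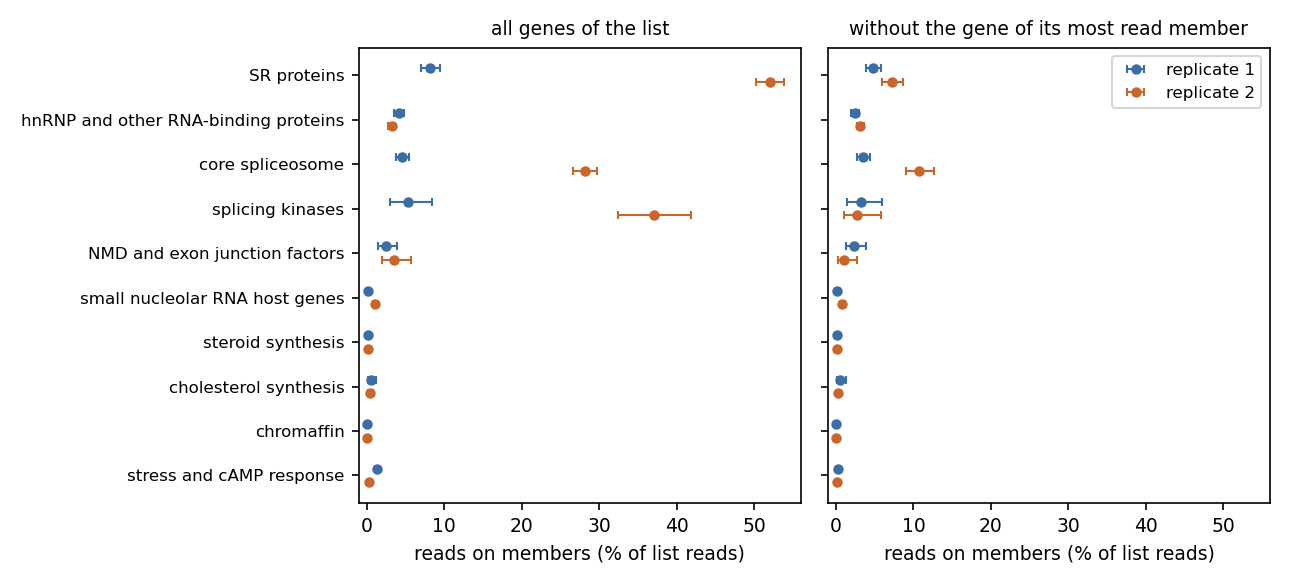
Reads on members as a share of all reads of a gene list (x axis, percent) in replicate 1 and replicate 2, with 95% Clopper-Pearson intervals, for all genes of each list (left) and without the gene of its most read member (right). The splicing lists reach 52.0%, 28.2% and 37.0% in replicate 2 with all genes and 7.18%, 10.7% and 2.71% without Rsrp1, Ddx5 and Clk1. In the core spliceosome list without Ddx5, 99 of the 129 member reads in replicate 2 were on Sf3b1-203.

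By structure, 991 of the 3169 retained_intron models (31.3%) held at least 1 whole intron of a protein_coding model inside an exon, and 343 of them held more than 1. Another 1457 (46.0%) held none but ended inside an intron, and 721 (22.8%) did neither. Models with a whole intron had 37.0% of the class's reads in replicate 1 and 56.7% in replicate 2. Of 561 tested, 47 were higher in replicate 2 (8.38%, background 8.26%) and 14 in replicate 1 (2.50%, background 4.62%). For models ending inside an intron the counts were 20 (2.26%) and 36 (4.07%) of 885, against the same backgrounds. Models with a whole intron had a median length of 2222 nt and those ending in one 1523 nt.

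The whole retained introns numbered 1553, with alternative ends of an intron counted apart. They were short: their median length was 310 nt (quartiles 135 and 793, longest 5322), against 1412 nt for 33176 other introns of the same genes. An intron was counted only when it lay whole inside 1 exon of a retained_intron model. The models that held a whole intron had a median length of 2222 nt, so the rule itself limits how long a counted intron could be. Most of the whole retained introns (64.0%) were internal introns of the gene, 21.5% were its first and 12.7% its last. They lay in coding sequence in 85.3% of cases, and 97.6% began with GT and ended with AG. In 1138 of 1271 with a known reading frame (89.5%), the frame of the exon before met a stop codon inside the intron, a median of 41 nt into it. The introns of Rsrp1, Eprs, Sf3b1 and Eif2s2 (1302, 2431, 1813 and 3257 nt) were longer than the upper quartile of this set. Position, place in coding sequence, end letters and in-frame stops were not counted for the other introns of the same genes. Those percentages therefore have no background.

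**Figure D5:**
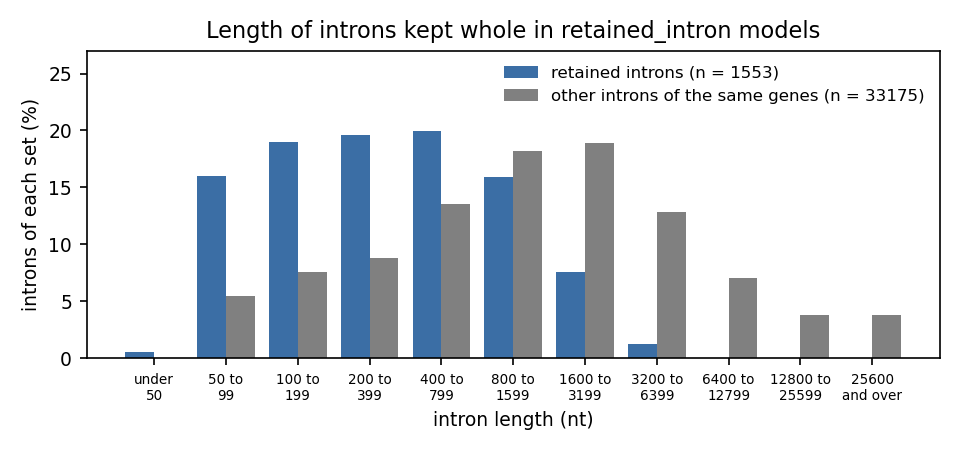
Lengths of introns kept whole in retained_intron models and of the other introns of the same genes (x axis, length classes in nt; y axis, percent of each set). Retained introns have a median of 310 nt and the others 1412 nt, and no retained intron exceeded 5322 nt.

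Among NMD models, Ddx5-208 stood apart by its reads. Ddx5 encodes a DEAD-box RNA helicase that acts in splicing and transcription. Ddx5-208 had 37 of 267 reads (13.9%, 9.95 to 18.6) in replicate 1 and 760 of 1955 (38.9%, 36.7 to 41.1) in replicate 2, with an adjusted p of 3.26e-15 by Fisher's exact test. Protein_coding models of Ddx5 had 136 and 781 reads. The model differs from them only by keeping 1 intron, so by structure it is a retained-intron transcript that the annotation assigns to the NMD type.

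Several other well-read NMD models had shares of all the gene's reads whose intervals overlapped between the libraries. Dnajc5-204, from the gene of a chaperone of secretory vesicles, had 12 of 42 reads (28.6%, 15.7 to 44.6) and 47 of 166 (28.3%, 21.6 to 35.8). Tk2-202, from the mitochondrial thymidine kinase gene, had 17 of 55 (30.9%, 19.1 to 44.8) and 40 of 175 (22.9%, 16.9 to 29.8). Pcnp-205, from the gene of a nuclear protein rich in PEST sequence, had 28 of 141 (19.9%) and 16 of 106 (15.1%). Adjusted p-values by Fisher's exact test were 1, 0.66 and 0.786. In Dnajc5 the NMD model had 12 reads in replicate 1 beside 11 on protein_coding models, and 47 beside 85 in replicate 2. Of reads on annotated models, Dnajc5-204 held 52.2% and 35.6%, Tk2-202 39.5% and 25.6%, and Pcnp-205 34.1% and 17.2%. These shares lay further apart than those over all reads, and none of these models was called with that denominator. Unspliced reads on unannotated models numbered 48 in replicate 1 and 0 in replicate 2 for Pcnp, and 15 and 2 for Dnajc5.

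Larger shares appeared in genes with fewer reads. Cyth2-203, from the gene of an exchange factor for ARF GTPases, had 36 of 72 reads (interval 38.0% to 62.0%) and 6 of 13 (46.2%, 19.2 to 74.9). E2f6-204, from the gene of a repressor of the E2F family, had 21 of 37 (56.8%, 39.5 to 72.9) and 7 of 16 (43.8%, 19.8 to 70.1). Yaf2-202, from the gene of a Polycomb-associated protein, had 27 of 71 (38.0%) and 7 of 14. Ankrd39-203 had 6 of 13 (46.2%) and 19 of 23 (82.6%). None of the 4 passed Fisher's exact test (adjusted p = 1, 0.902, 0.903 and 0.247), and their intervals are wide.

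The called NMD models besides Ddx5-208 were Pcnp-206, with 4 of 141 reads (2.84%) and 13 of 106 (12.3%), and Tardbp-201, with 6 of 22 (27.3%) and 3 of 68 (4.41%). Tardbp encodes TDP-43, which is known to regulate the splicing of its own transcript. Adjusted p-values were 0.0397 and 0.0467 by Fisher's exact test. Neither call held with Benjamini-Yekutieli adjustment (exact test, adjusted p = 0.388 and 0.457), and that of Pcnp-206 was also lost over reads on annotated models (0.406) and over multi-exon models (0.346). Over reads on annotated models Tardbp-201 was not called either, since its gene had fewer than 10 such reads in replicate 1. Only Ddx5-208 stayed called there. Hnrnpdl-201, from another self-regulating RNA-binding protein gene, had 10 of 31 (32.3%) and 13 of 94 (13.8%) and did not pass the exact test (adjusted p = 0.166). Hyi-202, from the hydroxypyruvate isomerase gene, had 27 of 34 reads in replicate 1, while the gene had 0 reads in replicate 2.

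Minor NMD forms were found in both libraries for further genes. Zfand5-204, which lacks an exon of the gene of a zinc-finger protein of protein turnover, had 9 of 165 reads (5.45%) and 18 of 407 (4.42%). Uqcc1-207, from the gene of an assembly factor for respiratory complex III, had 5 of 110 (4.55%) and 6 of 121 (4.96%), and Farsb-204, from a phenylalanyl-tRNA synthetase gene, had 6 of 108 (5.56%) and 3 of 56 (5.36%). The shares in these 3 genes lay close together, with an adjusted p of 1 in each by Fisher's exact test.

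Other NMD models had shares further apart that did not pass Fisher's exact test either. Tesc-202, from the gene of the calcium-binding protein tescalcin, had 53 of 635 reads (8.35%) and 2 of 46 (4.35%, adjusted p = 0.917 by the exact test). Mr1-204, from the gene of an antigen-presenting molecule, had 1 of 11 (9.09%) and 25 of 92 (27.2%, adjusted p = 0.661 by the exact test). Hnrnpa1-203, from the gene of an abundant splicing repressor, had 13 of 90 (14.4%) and 2 of 58 (3.45%, adjusted p = 0.222 by the exact test). Mtmr2-203, from a phosphoinositide phosphatase gene, had 3 of 61 (4.92%) and 17 of 136 (12.5%, adjusted p = 0.423 by the exact test).

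All 592 NMD models had an annotated stop, which in 588 lay more than 50 bases upstream of the last exon junction, as the definition of the type asks. Their reading frames had a median of 96 codons, or 34.0% of the longest protein_coding frame of the gene. Not all were cut short, as 50 models (8.45%) used the same stop as a protein_coding model. Hnrnpdl-201, for example, had 420 codons, as many as the longest protein_coding frame of its gene. An exon was skipped in 142 models (24.0%), an extra exon was added in 123 (20.8%), and an intron was kept with no other change in 25 (4.22%). Those 25 models had 79 reads in replicate 1 and 784 in replicate 2, of which 37 and 760 were Ddx5-208. The extra exons of these 123 models numbered 159 and had a median length of 107 nt. In 264 models (44.6%) some other junction absent from protein_coding models was used.

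The 3′ ends of members were searched for the letters AATAAA or ATTAAA, the common poly(A) signals, on the transcript strand in the last 50 bases of the annotated model. They were present in 30.1% of retained_intron models, 57.6% of NMD models and 72.8% of protein_coding models with reads in the same genes. Among retained_intron models the share was 18.2% where the 3′ end lay inside an intron, 45.8% where it lay elsewhere and 44.1% where a whole intron was kept. Rsrp1-204, Clk1-212, Srsf5-212, Maged1-207 and Rps24-204 held one of the signals, while Eprs-204, Sf3b1-203, Ddx24-204, Scarb1-209 and Soat1-203 did not. Over all annotated models, with or without reads, the shares were 22.4% for retained_intron and 50.2% for protein_coding. The ends are those of the annotation, and a match is a description of letters and not a measured cleavage site.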

How the data were processed

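Long-read RNA-seq of adrenal gland was analysed for 2 biological replicates of 1 group. Per the file headers, the authors deposited whole-number read counts per TALON transcript model, not normalized, with annotations on mm10. Which aligner was run, and its version, is not given in the sources used here. Reads were not thinned or rescaled. Model types were taken from the deposited annotations and equalled GENCODE M21 for all 17140 and 16199 annotated models. Shares are raw counts over all reads of the gene. Fisher's exact test (two-sided, SciPy 1.17.1) compared the libraries for genes with at least 10 reads in each, with Benjamini-Hochberg adjustment at 0.05, and was tested on simulated data. The simulated reads were independent draws at set shares, with no further spread between libraries. That run therefore cannot show how the test behaves where libraries differ in sampled length. Reads are treated as independent, so p-values measure only the spread between these reads. Named members were, per type, the 12 with the highest mean share (genes of at least 50 reads in each library, models of at least 5), the 12 most read, list members of at least 20 reads, and the 5 largest called differences in each direction. Members and lists were chosen with earlier results of these data known. Sequences came from GENCODE M21 transcripts. Gene minimum, denominator, single-exon models, adjustment and each replicate were varied.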

Additional observations from a re-analysis of the deposited data

How the results depend on the processing

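Depth limits these results, since 52.0% of retained_intron models rest on 1 read. Asking for at least 2, 5 or 10 reads left 1521, 497 and 195 retained_intron models and 374, 154 and 60 NMD models, asking for reads in each library left 728 and 180, and a single library gave 1767 to 2130 and 361 to 411. With reads on annotated models as the denominator, the retained_intron share of reads was 1.33%, the NMD median share was 2.68%, models with at least 50% of the gene's reads in both libraries numbered 7 (retained_intron) and 4 (NMD), the difference of Eprs-204 became -0.53 percentage points (Fisher's exact test, adjusted p = 1) and that of Sf3b1-203 -8.93 (adjusted p = 0.915), and 1 NMD model was called, higher in replicate 2, with 0 higher in replicate 1. The incomplete models left out of that denominator held 189 and 34 reads of Eprs and 127 and 56 of Sf3b1. With gene minimums of 20, 50 and none, the median share was 1.33%, 0.713% and 3.33% for retained_intron and 1.60%, 1.44% and 3.34% for NMD; in 1 library alone it ran from 0.751% to 1.34% and from 1.82% to 2.17%. Models with at least 50% of the gene's reads in both libraries numbered 1 at a minimum of 50 reads (retained_intron), 1 with multi-exon models only (NMD), and in single libraries 7 to 13 and 3 to 3. Called retained_intron models fell to 55 at a minimum of 50 gene reads (26 higher in replicate 2, 29 in replicate 1) and to 87 with Benjamini-Yekutieli adjustment (46 and 41), where NMD had 1, higher in replicate 2, and 0 higher in replicate 1; a minimum of 50 also gave 0 NMD models higher in replicate 1. At that minimum 512 retained_intron models were tested and 21.4% of all annotated models were called. Without the 5 or 10 most read models the mean retained_intron share of reads was 0.76% and 0.716%. Without the 1, 5 or 10 most read models, the difference in the retained_intron share of reads was 0.017, 0.011 and 0.0028 percentage points (Fisher's exact test, p = 0.275, 0.465 and 0.855), and without the 5 most read the NMD difference was 0.011 (exact p = 0.121). With Benjamini-Yekutieli adjustment, Cox4i1-204, Rpl3-204, Fry-206 and Sat1-205 were no longer called (exact test, adjusted p = 0.207, 0.0612, 0.11 and 0.099). No paired analysis was possible because there is 1 group.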

Other observations

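Some genes carried many annotated members. Of the 2856 genes with a member, 2177 had 1 and 168 had at least 3, and Gas5, a spliced host gene of small nucleolar RNAs, had the most with 9. Unspliced annotated forms made up 639 of the 3169 retained_intron models (20.2%), and all NMD models were spliced. Of the 1553 whole retained introns, 19 began with GC and ended with AG and 3 began with AT and ended with AC, the ends of a minor intron class. The length of 421 of the 1324 coding retained introns was divisible by 3, and 26 of these held no in-frame stop.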
